A study of Mus musculus with 10 samples.

Results

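RNA levels of 9 chemokine receptor genes, Ccr1, Ccr2, Ccr6, Ccr7, Cxcr3, Cxcr4, Cxcr5, Cxcr6 and Cx3cr1, were followed in natural killer cells (NKC) that lack or carry the transcription factor Runx3. The members were chosen by name, not by their values: every probe set of the array whose platform gene symbol was 1 of these 9 genes was taken, which gave 15 of 45101 probe sets. A gene was represented by its probe set with the highest mean over the 10 arrays.

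The cells came from spleens of ICR mice aged 6 weeks, with genotype Runx3 +/+ (WT) or Runx3 -/- (KO, with no allele named). NKC were enriched by negative selection, sorted for DX5 (a step named in the methods but not in the labels), and then kept in culture for 7 days. The cytokine was human IL-2 at 1000 u/ml or mouse IL-15, whose dose the labels do not give separately. IL-2 had 3 WT and 3 KO arrays, and IL-15 had 2 of each genotype, with no uncultured NKC among them. The methods call the arrays biological repeats, but no source used here says how many mice stood behind each, so p-values measure the spread between these samples, which may be in part technical. Affymetrix mouse arrays were used, and their number limits the precision of every value.

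Chemokine receptors are G protein-coupled receptors that let a leukocyte move along a gradient of a small secreted protein, the chemokine. The ligand activates an inhibitory G protein below the receptor, while receptor kinases, arrestins and RGS proteins end the signal. In NKC, Cxcr4 and Cx3cr1 are known for their part in traffic between bone marrow and blood, Ccr2, Cxcr3 and Cxcr6 for entry into inflamed tissue and liver, and Ccr7 for entry into lymph nodes.

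The values were log2 signals per probe set, and a level under log2 5 was treated as dim. The median signal of an array was 3.20 to 3.37, with 34.6% to 36.7% of its probe sets at log2 5 or above. Arrays of a group correlated at 0.9718 to 0.9843 and arrays of different groups at 0.7944 to 0.9395. Adding each WT array to its same-numbered KO partner gave the same sum for every pair of a cytokine, to within 0.00014 for any probe set. Differences between pairs were thus taken out before deposit, and the WT and KO values of a pair mirror each other. KO was therefore compared with WT with the pair as a block. By the same mirror, KO and WT arrays of a cytokine do not overlap whenever all pair differences share a sign. Lack of overlap between KO and WT thus restates those signs. Xist read 4.64 to 5.37 in the IL-2 arrays and 14.28 to 14.66 in the IL-15 arrays, and Y-linked Eif2s3y read 7.31 to 9.17 and 2.34 to 2.43, so that the sex of the mice and the cytokine cannot be told apart. Runx3 itself read 11.31, 11.57 and 12.06 in WT and 11.41, 11.15 and 10.66 in KO in IL-2, with 12.45 and 12.51 in WT and 11.41 and 11.35 in KO in IL-15. Its changes of -0.58 (adjusted p = 0.254) and -1.09 (adjusted p = 0.293) missed the threshold, and since the position of the probes relative to the deletion is not known here, this does not check the genotype. Of 11 NK cell marker genes with a probe set, 10 reached log2 5, and the array means of the list lay between 11.61 and 12.27, but Itga2, which encodes the DX5 antigen, stayed between 2.18 and 2.45. Single markers moved: in KO against WT in IL-2 Ncr1 (2.11, adjusted p = 0.017) and Tbx21 (1.42, adjusted p = 0.026) were called higher and Prf1 lower (-1.73, adjusted p = 0.0217), and from IL-2 to IL-15 in WT 4 were called higher, among them Ncr1 (2.49, adjusted p = 0.000749) and Klrk1 (1.83, adjusted p = 0.00165), and Prf1 lower (-0.96, adjusted p = 0.0302).

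The promoters of the 4 members on which the results turn, chosen with their changes known, are shown first, since Runx3 binds DNA. The windows are the 250 bases before the RefSeq gene start (GRCm38.p6), searched on both strands for the RUNX hexamer TGTGGT, for its variant TGCGGT and for the forms TGTGGC with C at the end and TGCGGC with both changes, with the matches in capitals (ACCACA is TGTGGT read on the other strand).
Cxcr3, chrX:101734148-101734397, minus strand: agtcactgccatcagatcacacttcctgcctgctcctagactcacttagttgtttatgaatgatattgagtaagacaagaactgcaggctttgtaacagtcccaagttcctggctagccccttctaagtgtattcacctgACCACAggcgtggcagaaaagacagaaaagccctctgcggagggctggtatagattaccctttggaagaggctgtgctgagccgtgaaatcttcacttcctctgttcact
Ccr1, chr9:123968693-123968942, minus strand: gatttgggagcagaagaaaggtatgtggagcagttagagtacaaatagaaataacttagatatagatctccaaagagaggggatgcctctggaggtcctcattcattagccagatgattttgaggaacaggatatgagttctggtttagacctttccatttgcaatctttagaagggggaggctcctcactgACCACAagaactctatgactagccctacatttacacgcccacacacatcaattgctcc
Cxcr6, chr9:123806227-123806476, plus strand: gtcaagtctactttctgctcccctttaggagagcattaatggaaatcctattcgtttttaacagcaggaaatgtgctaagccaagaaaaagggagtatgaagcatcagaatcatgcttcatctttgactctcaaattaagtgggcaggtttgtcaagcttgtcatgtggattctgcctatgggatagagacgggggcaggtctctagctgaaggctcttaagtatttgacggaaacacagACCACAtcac
Cxcr4, chr1:128592300-128592549, minus strand: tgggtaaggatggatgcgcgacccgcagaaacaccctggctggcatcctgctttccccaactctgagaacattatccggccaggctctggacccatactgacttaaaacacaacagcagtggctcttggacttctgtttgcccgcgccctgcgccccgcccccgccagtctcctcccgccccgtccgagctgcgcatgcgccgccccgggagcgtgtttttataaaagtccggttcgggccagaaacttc

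In Cxcr3 the first base of the match lay 110 bases before the start, in Ccr1 58 bases and in Cxcr6 10 bases, all 3 as TGTGGT on the other strand, and the Cxcr4 window held none of the 4 hexamers. Of the other members, Cx3cr1 had TGCGGT 127 bases and TGTGGT on the other strand 54 bases before its start, and the windows of Ccr2 and Ccr6 had no match. In all, 7 members had a window and 4 of them a hexamer. Across 32851 promoter windows of this length, 38.0% held at least 1 of the 4 hexamers and 14.0% held TGTGGT on either strand. A match in such a window is a description of the letters and not a site of binding.

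Of the 9 genes, 5 (Cxcr3, Cxcr4, Cxcr6, Ccr1 and Ccr2) reached log2 5 on at least 2 arrays and were among the 9391 genes that entered the test. Ccr1 passed only through the WT arrays in IL-2, so that it could enter only with groups that stood apart. Cxcr4 passed through 4 IL-2 arrays, those of KO (5.46, 6.86 and 6.82) and a WT array (5.26). It would not have entered without KO in IL-2. The p-values of Ccr1 and Cxcr4 in fits with this filter are therefore a description. The other 4 genes, Ccr6, Ccr7, Cxcr5 and Cx3cr1, were too dim and are given as levels without a test. Levels are compared between arrays of a probe set and never between genes.

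**Figure D1:**
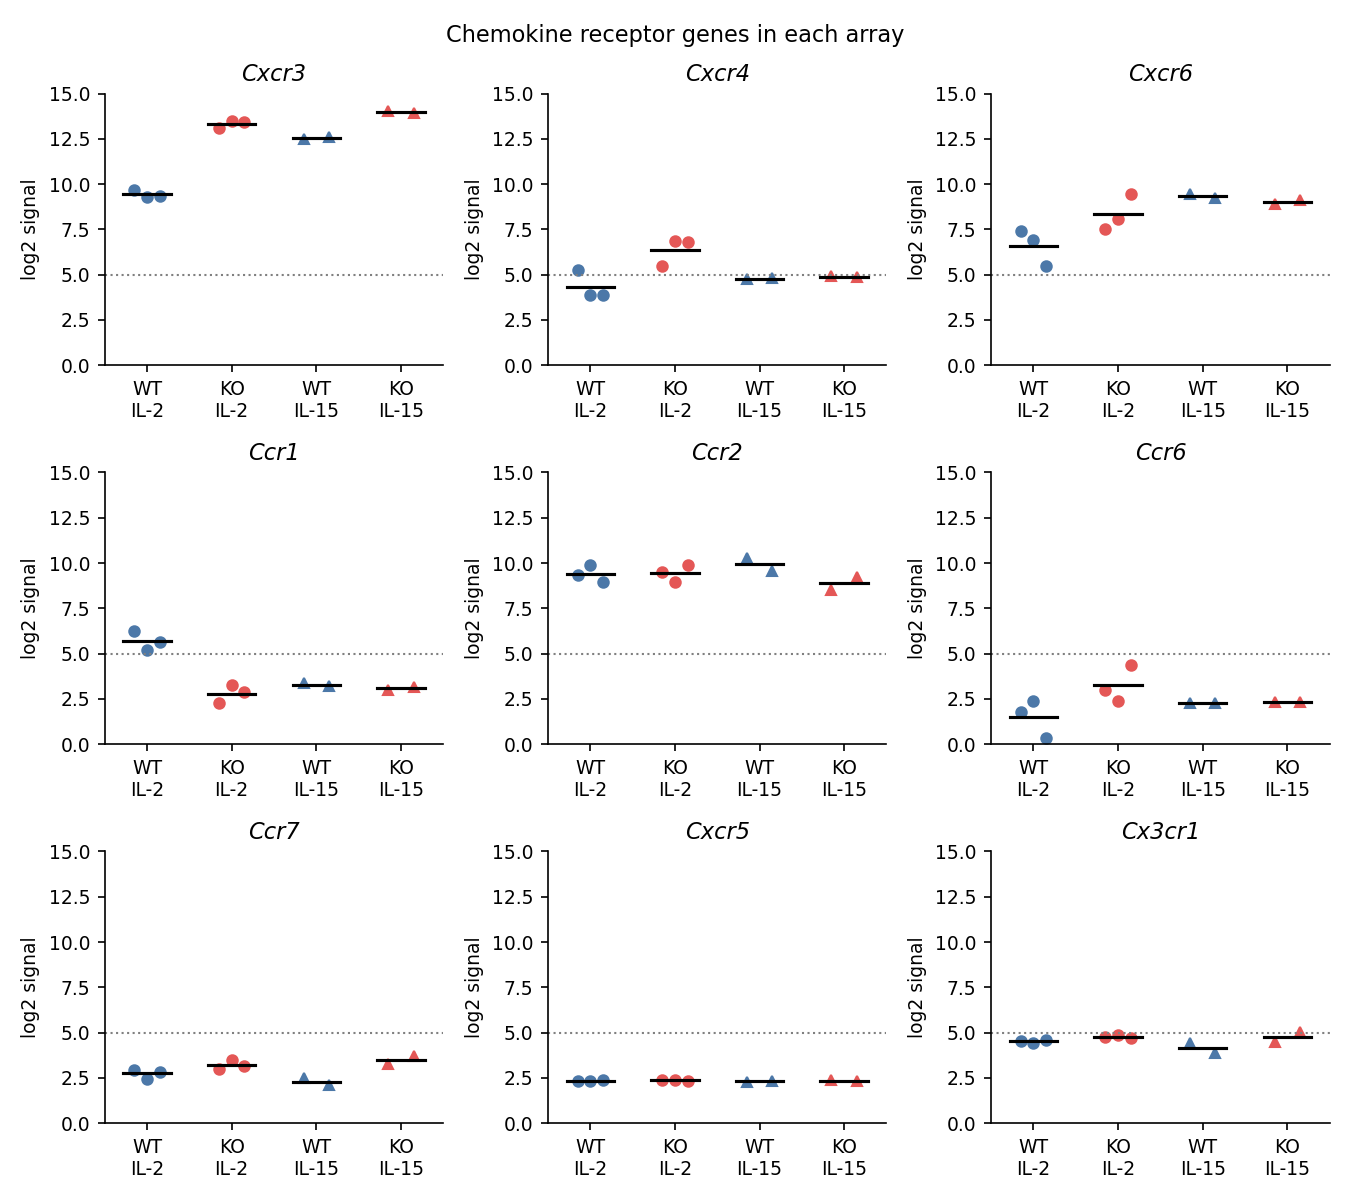
Log2 signal of the 9 chemokine receptor genes (1 panel per gene, probe set of the highest mean) in each of the 10 arrays, by group on the horizontal axis. Blue is WT and red is KO, circles are IL-2 and triangles IL-15, bars are group means and the dotted line is log2 5. Cxcr3 was lowest in WT NKC in IL-2 (9.30 to 9.69) and Ccr1 was above the line only there (5.22 to 6.24), while Ccr6, Ccr7 and Cxcr5 lay under the line on all arrays and Cx3cr1 reached it on 1.

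In IL-2, loss of Runx3 came with higher RNA of Cxcr3 and Cxcr4 and lower RNA of Ccr1. The comparison asks which genes respond to the absence of Runx3 in IL-2-activated NKC. Genes with a limma adjusted p below 0.05 that moved 1.5-fold or more were called, and 3 of the 5 tested members were called (2 higher, 1 lower) where 19.7% of all 9391 genes were (10.5% higher, 9.17% lower). The KO and WT arrays did not overlap for 4 of the 5 members, where they did not for 54.4% of all genes, and the median change was 1.76 on the log2 scale, with 0.11 over all tested genes. Ccr1 had to differ to be tested at all, and Cxcr4 would not have entered without the KO arrays in IL-2. These counts and this median therefore describe the members and are not read against the shares of all genes. Without Ccr1, 2 of 4 were called and 3 of 4 did not overlap, with Cxcr4 still in both counts.

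Cxcr3, the receptor of the interferon-induced chemokines Cxcl9, Cxcl10 and Cxcl11 and a homing receptor of activated NKC and T cells, read 9.69, 9.30 and 9.35 in WT and 13.08, 13.47 and 13.43 in KO in IL-2. All KO arrays were above all WT arrays by a wide margin. It rose by 3.88 ± 0.43 (log2, mean ± SD over 3 pairs), 14.7-fold, with pair differences from 3.39 to 4.16 (SE 0.27, adjusted p = 0.00132). This was the 41st highest change of the 9391 genes. The call held under every alternative tried, with an adjusted p from 2.79e-06 to 0.0178.

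Ccr1, a receptor of Ccl3, Ccl5 and other inflammatory chemokines, read 6.24, 5.22 and 5.63 in WT and 2.25, 3.27 and 2.86 in KO in IL-2. The KO arrays were all dim and the WT arrays all above log2 5. It fell by 2.91 ± 1.03 (log2, 3 pairs, from -4.0 to -1.95, adjusted p = 0.00588), and since KO was dim the fold is given as at least 1.62, the WT mean against log2 5. A second probe set of Ccr1, 1419610_at, stayed dim on all 10 arrays, between 3.47 and 4.12, with a difference of 0.094 ± 0.23 in IL-2. The fall of Ccr1 thus rests on its brighter probe set alone. This probe set entered the test only through the WT arrays in IL-2, so its p-value is a description. Ccr1l1, a Ccr1-like gene next to Ccr1 on chromosome 9, fell as well and is described with the other receptors.

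Cxcr4, the receptor of Cxcl12 that holds leukocytes in the bone marrow, read 5.26, 3.86 and 3.90 in WT and 5.46, 6.86 and 6.82 in KO in IL-2. The arrays of pair 1 were close together and those of pairs 2 and 3 far apart, with KO higher in all 3 pairs. The difference was 2.04 ± 1.59 (log2, 3 pairs, from 0.20 to 3.0, adjusted p = 0.0439), at least 2.45-fold with the 2 dim WT arrays set to log2 5. The call was lost without pair 2 (1.56, adjusted p = 0.176) and without pair 3 (1.60, adjusted p = 0.144). It was also lost when any single IL-15 array was left out (adjusted p = 0.0705 each time) and after quantile normalization (adjusted p = 0.0611). The same held with no filter on dim genes (adjusted p = 0.181) and with crossed numbers in IL-15 (adjusted p = 0.0525). Without pair 1 it was 2.96 (adjusted p = 0.0217).

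Cxcr6, the receptor of Cxcl16 known from NKC and NKT cells that patrol the liver, read 7.41, 6.90 and 5.48 in WT and 7.54, 8.05 and 9.47 in KO in IL-2. The lowest KO array was just above the highest WT array, and the spread came mainly from pair 3. The difference of 1.76 ± 2.01 (log2, pairs 0.13, 1.15 and 4.0, adjusted p = 0.11) did not pass the test, and without pair 3 it was 0.64. Its second probe set, 1422812_at, gave 7.04, 7.02 and 5.15 in WT and 7.44, 7.45 and 9.32 in KO, a difference of 1.67 ± 2.17 (adjusted p over probe sets = 0.151). Without the pair as a block the adjusted p of Cxcr6 was 0.0341.

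Ccr2, the receptor of Ccl2, Ccl7 and Ccl12 that draws monocytes and NKC to inflamed tissue, had 4 probe sets. The brightest, 1421186_at, read 9.35, 9.92 and 8.97 in WT and 9.50, 8.93 and 9.87 in KO in IL-2, and the groups overlapped. The difference was 0.021 ± 0.95 (adjusted p = 0.979), with pairs from -0.99 to 0.90. The others gave 0.28 ± 3.27 (1421187_at), -0.34 ± 0.93 (1421188_at) and 0.44 ± 1.17 (1460067_at), none of which passed the test (adjusted p over probe sets of 0.878, 0.551 and 0.519). In each of the 4, pair 2 was lower in KO and pair 3 higher.

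**Figure D2:**
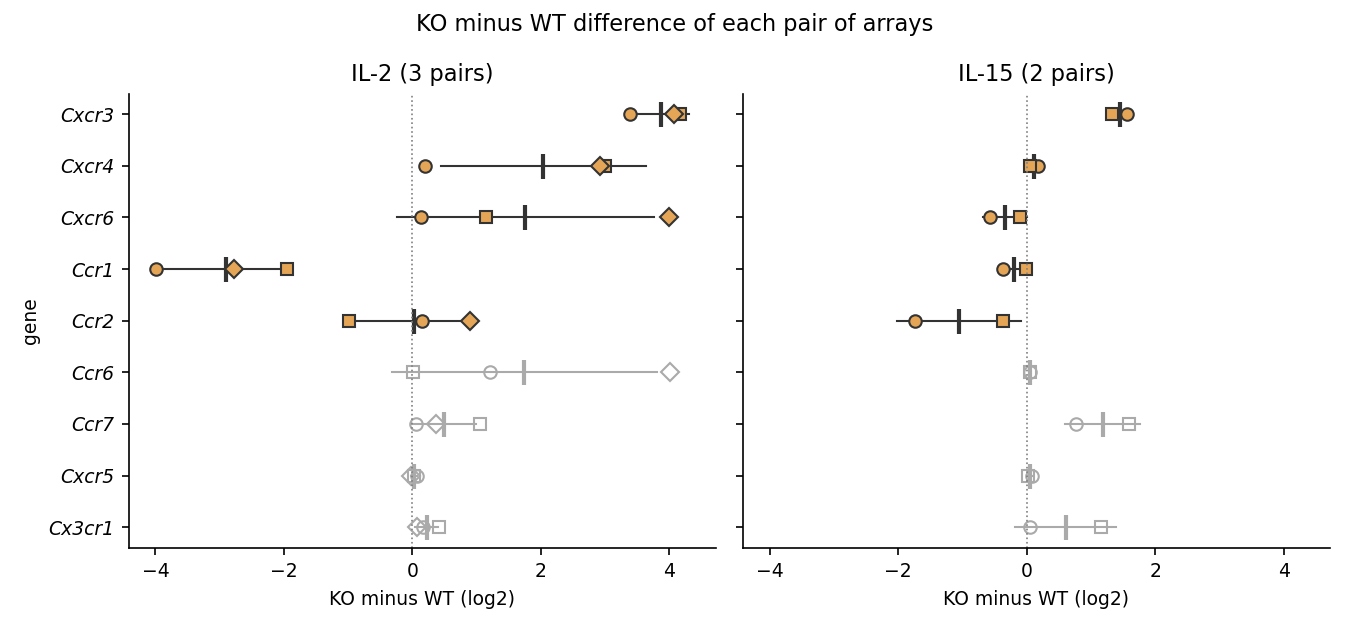
KO minus WT difference (log2, horizontal axis) of each pair of arrays for the 9 genes, in IL-2 (left, 3 pairs) and IL-15 (right, 2 pairs). Circles are pair 1, squares pair 2 and diamonds pair 3, the vertical tick is the mean and the line its SD over pairs, and grey open symbols mark genes too dim to test. In IL-2 the 3 pairs of Cxcr3 lie between 3.39 and 4.16 and those of Ccr1 between -4.0 and -1.95, while pair 3 of Cxcr6 (4.0) stands apart from its other pairs.

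In IL-15, none of the 5 tested members was called in KO against WT, where 1.30% of all genes were (0.458% higher and 0.841% lower, 122 genes by limma, against 1269 at an unadjusted p under 0.05, at which 1 member passed, Cxcr3). The 2 groups of 2 arrays did not overlap for 5 of 5 members, 2 higher and 3 lower in KO, against 64.6% of all genes. The gap was 0.017 for Ccr1 and 0.055 for Cxcr4, both dim on all IL-15 arrays, and 0.097 for Cxcr6. With 2 mirrored pairs, lack of overlap needs only 2 differences of the same sign. The count is therefore not read against that share. The median change of the members was -0.19, against -0.011 over all tested genes.

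Cxcr3 read 12.50 and 12.61 in WT and 14.06 and 13.94 in KO in IL-15. The KO arrays were again above the WT arrays. The difference was 1.45 ± 0.16 (log2, 2 pairs of 1.56 and 1.33, 2.73-fold, adjusted p = 0.106), which did not pass the test, and without the pair as a block the adjusted p was 0.00234. Cxcr4 read 4.74 and 4.80 in WT and 4.92 and 4.85 in KO, dim on all 4 arrays, with a difference of 0.12 ± 0.087 (adjusted p = 0.981). Ccr1 was dim in both genotypes, at 3.37 and 3.19 in WT and 3.0 and 3.18 in KO (-0.19 ± 0.25, adjusted p = 0.936).

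Cxcr6 read 9.46 and 9.22 in WT and 8.88 and 9.12 in KO in IL-15, a difference of -0.34 ± 0.34 (adjusted p = 0.933), and its second probe set gave -0.76 ± 0.23 (adjusted p over probe sets = 0.809). Ccr2 read 10.27 and 9.59 in WT and 8.53 and 9.22 in KO on its brightest probe set, a difference of -1.05 ± 0.97 (adjusted p = 0.462). Its other probe sets did not move alike. By 1421187_at Ccr2 read 7.60 and 7.81 in WT and 4.83 and 4.62 in KO (-2.99 ± 0.30, adjusted p over probe sets = 0.408), and by 1421188_at 8.60 and 8.67 in WT and 7.27 and 7.21 in KO (-1.39 ± 0.093, 0.263). By 1460067_at it read 7.13 and 6.81 in WT and 6.93 and 7.26 in KO (0.13 ± 0.45, 0.97).

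**Figure D3:**
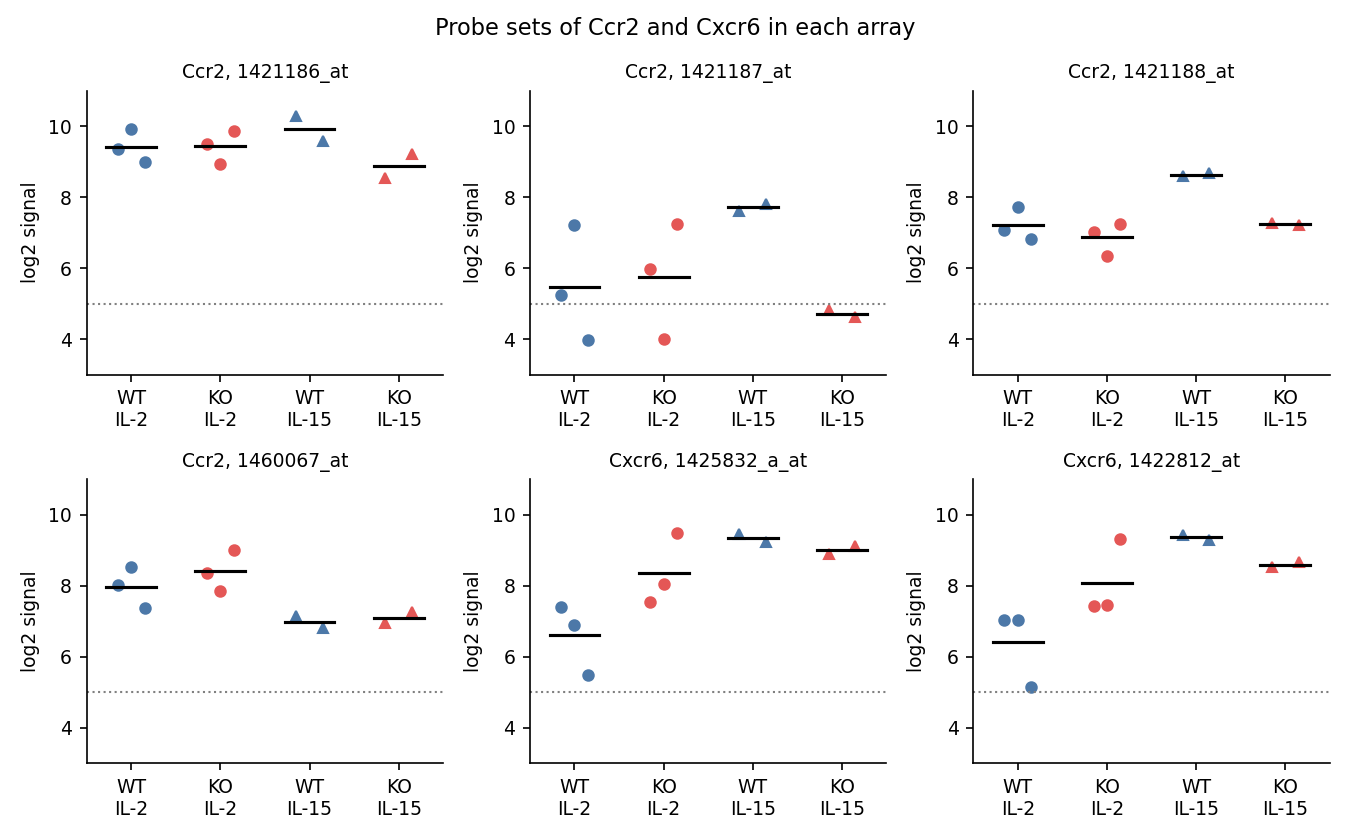
Log2 signal of the 4 probe sets of Ccr2 and the 2 of Cxcr6 in each array, by group on the horizontal axis, with symbols as in the plot of the 9 genes (blue WT, red KO, circles IL-2, triangles IL-15, bars group means, dotted line log2 5). The 2 probe sets of Cxcr6 follow the same order of groups, while in IL-15 1421187_at and 1421188_at of Ccr2 lie lower in KO than in WT and 1460067_at overlaps.

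The KO effect was then compared between the cytokines, as the effect in IL-15 minus that in IL-2. No member passed, nor did any of the 9391 genes (0% called by limma, with 1106 genes at an unadjusted p under 0.05). Ccr1, lower in KO in IL-2 and dim in IL-15, had a difference of 2.71 (SE 0.63, unadjusted p = 0.00379 and adjusted p = 0.258 by limma). Cxcr3, with 3.88 in IL-2 and 1.45 in IL-15, had a difference of -2.43 (SE 0.42, unadjusted p = 0.000754 and adjusted p = 0.182 by limma). For Cxcr4 it was -1.92 (adjusted p = 0.452), for Cxcr6 -2.10 (adjusted p = 0.487) and for Ccr2 -1.07 (adjusted p = 0.567).

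Between the cytokines, WT NKC had more Cxcr3 and Cxcr6 RNA and less Ccr1 RNA in IL-15 than in IL-2. These 3 of 5 tested members were called (2 higher, 1 lower), where 48.0% of all genes were (29.4% higher, 18.7% lower), and without Ccr1, which the filter admitted through WT in IL-2 alone, 2 of 4 were, a share near that of the background. The groups did not overlap for the same 3 members, against 70.0% of all genes, and the median change was 0.51 against 0.18. Sex of the mice and cytokine are not separable here, Cxcr3 lies on chromosome X, and the removal of pair differences leaves a spread that is too small by an unknown amount.

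In WT, Cxcr3 was 9.30 to 9.69 in IL-2 and 12.50 to 12.61 in IL-15, a rise of 3.11 on the log2 scale (8.61-fold, SE 0.18, adjusted p = 1.09e-05). Cxcr6 was 5.48 to 7.41 in IL-2 and 9.22 to 9.46 in IL-15 and rose by 2.74 (6.69-fold, adjusted p = 0.00726), with 2.95 by its second probe set (adjusted p over probe sets = 0.00707). Ccr1 was 5.22 to 6.24 in IL-2 and dim in IL-15, and fell by 2.42 (at least 1.62-fold, adjusted p = 0.000652). Cxcr4 differed by 0.43 (adjusted p = 0.501) and Ccr2 by 0.51 (adjusted p = 0.283). The probe sets of Ccr2 were in conflict here, with 1.43 by 1421188_at (adjusted p over probe sets = 0.00522), 2.24 by 1421187_at (0.0976) and -1.0 by 1460067_at (0.0608).

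In KO, 2 of the 5 members were called between the cytokines, Cxcr3 higher and Cxcr4 lower in IL-15, where 46.1% of all genes were (23.6% higher, 22.5% lower). The same 2 did not overlap, against 68.3% of all genes, and the median change of the members was 0.30 against -0.079. Cxcr4 would not have entered the test without the KO arrays in IL-2, so its p-value is a description. These counts describe the members and are not read against the shares of all genes. Cxcr3 was 13.08 to 13.47 in IL-2 and 13.94 to 14.06 in IL-15, a rise of 0.68 (1.60-fold, adjusted p = 0.012). Cxcr4 was 5.46 to 6.86 in IL-2 and dim in IL-15, and fell by 1.49 (at least 2.60-fold, adjusted p = 0.0381). With the residual variance of the blocked fit neither was called, at an adjusted p of 0.141 for Cxcr3 and 0.123 for Cxcr4. Without KO array 1 in IL-15 both calls were lost, Cxcr3 was also lost without KO array 1 in IL-2, and Cxcr4 without KO array 2 or 3 in IL-2, without KO array 2 in IL-15, without either WT array in IL-15, and with no filter on dim genes. Cxcr6 differed by 0.65 (adjusted p = 0.429), Ccr1 by 0.30 (adjusted p = 0.499) and Ccr2 by -0.56 (adjusted p = 0.253), although Ccr2 by 1460067_at fell by 1.31 (adjusted p over probe sets = 0.0222).

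Set in order, Cxcr3 was lowest in WT in IL-2, then WT in IL-15, KO in IL-2 and KO in IL-15. No neighbours in this order overlapped, and the gaps between their ranges were 2.80, 0.47 and 0.48. Cxcr4 was highest in KO in IL-2, 0.54 above the nearest array of KO in IL-15, and the ranges of WT in IL-2 and WT in IL-15 overlapped. Ccr1 was highest in WT in IL-2, 1.85 above WT in IL-15, and its other 3 groups were dim. Cxcr6 was lowest in WT in IL-2, 0.13 under KO in IL-2, whose range overlapped that of KO in IL-15, and WT in IL-15 was highest by a gap of 0.10. For Ccr2 on its brightest probe set, all neighbours in the order overlapped.

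The 4 dim members are listed by level. Ccr7, the receptor of Ccl19 and Ccl21 that leads cells to lymph nodes, read 2.96, 2.46 and 2.81 in WT and 3.01, 3.51 and 3.17 in KO in IL-2, and 2.50 and 2.09 in WT and 3.28 and 3.69 in KO in IL-15. Every KO array was above every WT array of its cytokine, but all were under log2 5. Ccr6, the receptor of Ccl20, read 1.76, 2.37 and 0.36 in WT and 2.97, 2.37 and 4.38 in KO in IL-2, and 2.29 to 2.35 on all IL-15 arrays. Its pair 3 stood apart, as it did for Cxcr6. Cx3cr1, the fractalkine receptor of mature NKC, read 4.44 to 4.61 in WT and 4.69 to 4.86 in KO in IL-2, and 4.40 and 3.85 in WT and 4.46 and 5.01 in KO in IL-15, and its second probe set, 1450019_at, stayed between 2.21 and 2.31 in WT and KO. Cxcr5, the receptor of Cxcl13 that leads cells into B cell follicles, stayed between 2.29 and 2.39 on all 10 arrays.

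The genes whose levels followed those of a member most closely were found by Pearson's r over the 10 arrays, which share the group structure and the pair step, so that these values are a description. For Cxcr3 they were Ifi47 (r = 0.994), an interferon-induced GTPase, Ms4a4c (0.992) and Gm2a (0.990). For Ccr1 they were Kdelr3 (0.991), Vps8 (0.991) and Coch (0.988). For Cxcr4 they were Atp6v0e2 (0.999), Churc1 (0.969) and E130307A14Rik (0.968), for Cxcr6 Knstrn (0.971), Vamp1 (0.956) and Krt42 (0.953), and for Ccr2 Nipsnap2 (0.921), Gm11517 (0.904) and Luc7l (0.904).

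On chromosome 9, RefSeq places Ccr9, Fyco1, Cxcr6, Xcr1, Ccr1, Ccr1l1, Ccr3 and Ccr2 in this order, so that 3 of the members lie in a receptor cluster. Genes of the cluster did not share a direction in IL-2: Ccr1 and Ccr1l1 fell, Cxcr6 gave 1.76 and Ccr2 0.021 without a call, and Ccr3 and Xcr1 were dim on all arrays. Ccr1l1 read 7.26, 5.17 and 6.56 in WT and 1.27, 3.36 and 1.96 in KO in IL-2. It was called lower in KO in IL-2 (adjusted p = 0.0108) and, in WT, lower in IL-15 than in IL-2 (adjusted p = 0.00696), in both cases by at least 2.51-fold since the lower group was dim on all its arrays. Ccr1 and Ccr1l1 are related genes, and whether their probe sets share transcripts is not known here. Of 9 other chemokine receptors 8 had a probe set, of which 2 could be tested, with 0 higher and 1 lower (Ccr1l1) in KO in IL-2, 0 called in IL-15, and both lower in IL-15 than in IL-2 in WT. Over all genes 9.17% fell in KO in IL-2, 1.30% were called in IL-15, and 18.7% fell from IL-2 to IL-15 in WT. Ccr1l1 reached log2 5 only on the WT arrays in IL-2, and Ccr9 only on IL-2 arrays. These counts therefore describe the 2 genes and are not read against those shares, and the p-values of Ccr1l1 are a description. Ccr9 read 5.42 to 6.45 in WT and 4.28 to 5.31 in KO in IL-2 (-0.87, adjusted p = 0.185).

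Among 17 chemokine ligands of the members with a probe set, 5 were tested and 3 rose in KO in IL-2, where 10.5% of all genes did, with a list median of 1.91 against 0.11 over all genes. They were Cxcl10, a ligand of Cxcr3 (at least 4.69-fold with its dim WT arrays set to log2 5, adjusted p = 0.0104), and Ccl5 (2.30, adjusted p = 0.0211) and Ccl3 (1.58, adjusted p = 0.0106), ligands of Ccr1. Cxcl10 read 4.60, 5.22 and 3.98 in WT and 7.30, 6.68 and 7.92 in KO in IL-2, and the groups did not overlap. It would not have entered the test without KO arrays, so its p-value is a description. The count of ligands that rose is therefore not read against the share of all genes. Cxcl9, Cxcl11, Cxcl12 and Cxcl16 were dim on all arrays. No ligand was called in IL-15 between KO and WT. From IL-2 to IL-15 the tested ligands had 0 rises and 3 falls in WT and 0 rises and 4 falls in KO, where 18.7% and 22.5% of all genes fell. Among them was Ccl9, a Ccr1 ligand, which was dim on both IL-15 arrays of WT and 1 of KO and fell by at least 2.25-fold in WT (adjusted p = 0.00708) and at least 6.90-fold in KO (adjusted p = 0.00515).

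Among atypical receptors and other chemoattractant receptors, 9 were tested and 3 rose in KO in IL-2, against 10.5% of all genes, with a median of 0.91. S1pr5, the sphingosine phosphate receptor for exit of NKC from bone marrow and lymph nodes, rose by 5.48 in IL-2 (at least 35.5-fold, adjusted p = 0.00132) and by 5.12 in IL-15 (at least 25.5-fold, adjusted p = 0.0111), the 1 gene of this list called there, with dim WT arrays set to log2 5 for both folds. It read 4.49 to 5.09 in WT and 9.79 to 10.39 in KO in IL-2. S1pr5 would not have entered the test without KO arrays, so its p-values are a description. The count of 3 is therefore not read against the share of all genes. Ccrl2, an atypical receptor that binds the chemoattractant chemerin, rose by 1.99 (adjusted p = 0.0287), and Ptger4, a prostaglandin E receptor, by 1.93 (adjusted p = 0.0148). Between the cytokines, 2 of the 9 were higher and 2 lower in IL-15 in WT, and 1 and 2 in KO, where 48.0% and 46.1% of all genes were called, with Gpr183, an oxysterol receptor, higher in both (3.94 and 1.56, adjusted p = 8.57e-05 and 0.00742).

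Below the receptors, 24 genes of G protein signalling were tested, and in KO in IL-2 2 rose and 2 fell, near the 19.7% called over all genes, with a median of 0.074 against 0.11. Pik3r6, a regulatory subunit of the G protein-coupled PI3 kinase, fell by 2.30 (adjusted p = 0.0253), Gnai3, an inhibitory G protein alpha subunit, fell by 1.29 (adjusted p = 0.0157), and Prex1, a Rac exchange factor, rose by 1.65 (adjusted p = 0.0302). In IL-15 0 were called between KO and WT. From IL-2 to IL-15, 10 rose and 3 fell in WT and 9 rose and 1 fell in KO, near the 48.0% and 46.1% called over all genes, among them Gng2, a G protein gamma subunit (1.96 and 2.27, adjusted p = 0.000476 and 0.000248).

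Of 12 tested genes that end the receptor signal, 3 rose and 1 fell in KO in IL-2, where 19.7% of all genes were called, with a median of 0.45. Rgs10 read 5.58, 6.04 and 5.91 in WT and 9.66, 9.20 and 9.34 in KO in IL-2 and rose by 3.56 (adjusted p = 0.00169), Rgs3 rose by 1.42 (adjusted p = 0.0318), and Rgs16 fell by 1.80 (adjusted p = 0.0387). All 3 encode regulators that speed up GTP hydrolysis by G protein alpha subunits. In IL-15 0 were called between KO and WT, and from IL-2 to IL-15 4 rose and 1 fell in WT and 4 rose and 3 fell in KO, where 48.0% and 46.1% of all genes were called, with Arrb1, an arrestin, higher in WT (2.32, adjusted p = 0.000479) and KO (1.35, adjusted p = 0.00715).

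**Figure D4:**
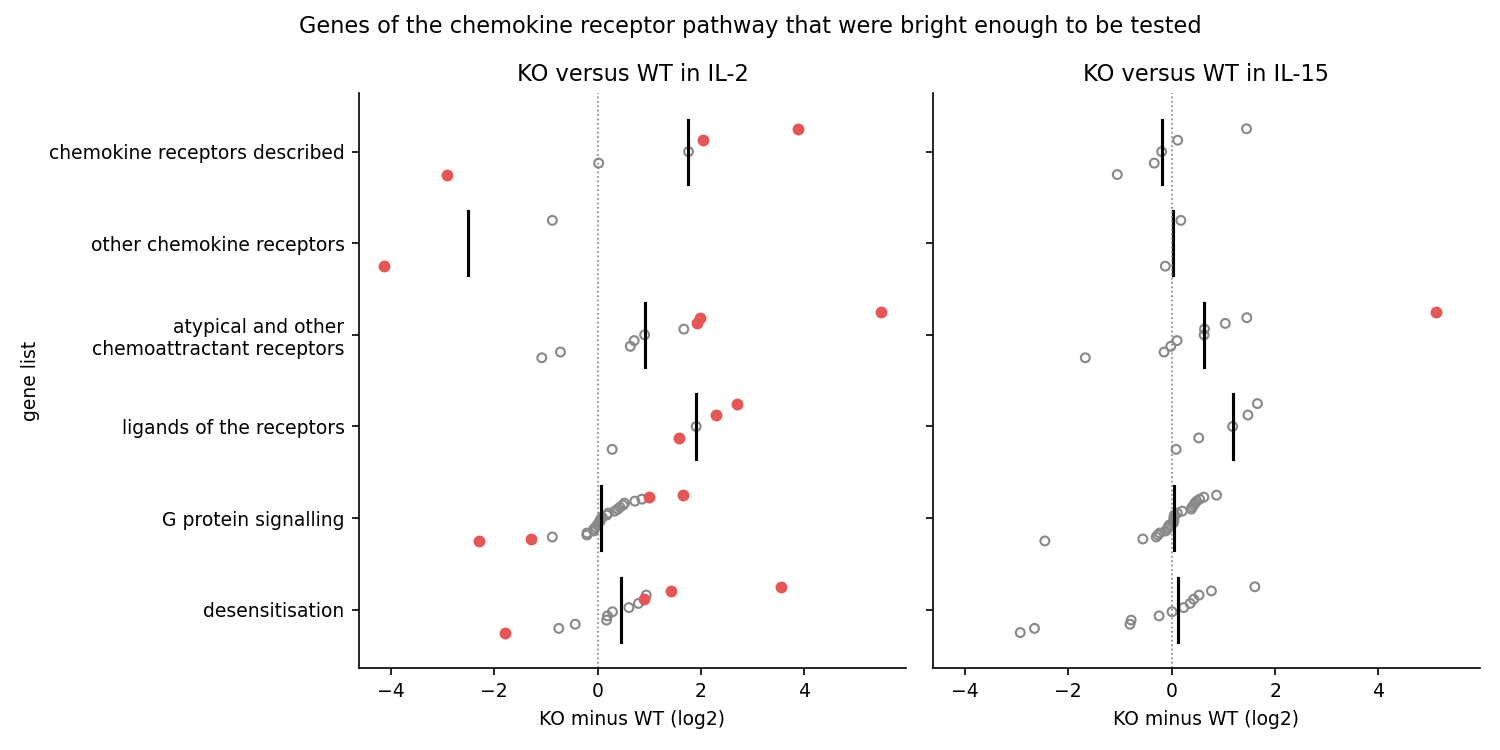
KO minus WT difference (log2, horizontal axis) of every tested gene of the chemokine receptor lists (vertical axis), in IL-2 (left) and IL-15 (right). Filled red points are called genes, open points are not called, and black ticks are list medians. In IL-2 the ligand list lies to the right of 0 with 3 of 5 called (median 1.91), while the G protein list centres near 0 (median 0.074), and in IL-15 S1pr5 (5.12) is the called gene.

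Genes listed as markers of other cells moved with some of these groups. Which cells carried their RNA, and their part in the results, was not tested. In these bulk samples fewer cells of a type and less RNA per cell cannot be told apart. The array means of 9 B cell marker genes were 3.39 to 3.50 in WT and 4.21 to 4.33 in KO in IL-2, with Blk (at least 8.60-fold, adjusted p = 0.00141) and Ighm (2.26, adjusted p = 0.0101) called higher in KO. The other 7 of these genes, Cd79a, Ms4a1 and Pax5 among them, were dim on all arrays. For 8 dendritic cell genes the means were 3.99 to 5.10 in WT and 5.20 to 6.31 in KO in IL-2, with Cd74 (at least 6.39-fold, adjusted p = 0.00799) and H2-Aa (at least 4.09-fold, adjusted p = 0.0373) called, H2-Ab1 (0.74), Itgax (1.24) and Zbtb46 (-0.066) not called, and Flt3, Siglech and Cd209a dim on all arrays. For 10 T cell genes they were 4.89 to 5.44 and 5.47 to 6.03, with Bcl11b (3.15, adjusted p = 0.00137) and Lat (1.17, adjusted p = 0.0164) called, Cd3d (0.90, adjusted p = 0.471), Cd3e (1.14, adjusted p = 0.114) and Cd3g (-0.56, adjusted p = 0.644) not called, and Cd4, Cd8a, Cd8b1, Cd5 and Cd6 dim on all arrays. Of the called genes, Blk reached log2 5 only on the KO arrays in IL-2 and Cd74 only on KO arrays. Both could enter the test only with groups that stood apart. H2-Aa, which reached log2 5 in WT only on an array at 5.20, would not have entered without KO arrays. The p-values of Blk, Cd74 and H2-Aa are therefore a description.

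Beside Ccr1 and Ccr2, receptors that monocytes also carry, stand the 7 monocyte and macrophage genes. Their array means overlapped, at 4.45 to 6.00 in WT and 4.29 to 5.85 in KO in IL-2, and were 3.59 to 4.59 and 4.09 to 5.09 in IL-15. In KO against WT in IL-2 they did not share a direction. Cd14 was called lower, from 7.58, 6.27 and 9.19 to 3.90, 5.20 and 2.29 (at least 6.10-fold, adjusted p = 0.0494), while Lyz2 (2.90, adjusted p = 0.114), Cd68 (1.23, adjusted p = 0.202), Adgre1 (0.14, adjusted p = 0.825) and Csf1r (-1.56, adjusted p = 0.438) were not called. Fcgr1 and Mertk were dim on all arrays, as were all 7 granulocyte, mast cell and basophil genes. In IL-15, where S1pr5 was called, the B cell means were 3.50 to 3.53 in WT and 3.69 to 3.73 in KO, the dendritic cell means 4.56 to 4.84 and 5.29 to 5.56, and the T cell means 5.16 to 5.52 and 5.22 to 5.58, with Bcl11b the 1 T cell gene called (1.80, adjusted p = 0.0426).

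Genes of these marker lists also moved between the cytokines. From IL-2 to IL-15 in WT, Ighm (1.55, adjusted p = 0.00376), Bcl11b (1.48, adjusted p = 3.42e-05) and Cd68 (1.97, adjusted p = 0.0204) were called higher and Cd14 lower (at least 6.23-fold, adjusted p = 0.0246). In KO, Blk (at least 8.60-fold, adjusted p = 5.19e-05), Cd74 (-2.05, adjusted p = 0.0312), Cd3e (-1.34, adjusted p = 0.0214) and Lat (-0.72, adjusted p = 0.000981) were called lower and no marker of these lists higher. These are the called genes of the B cell, T cell, dendritic cell and monocyte lists in both comparisons. Blk entered the test only through the KO arrays in IL-2, so its p-value in KO is a description.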

How the data were processed

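RNA of cultured NKC was hybridised to Affymetrix mouse arrays. For each probe set the authors deposited a log2 signal, normalized by GC-RMA with Partek software (release not given in the sources used here). They were used without further scaling. A further step, described in neither labels nor methods, made the sums of same-numbered WT and KO arrays equal (largest difference 0.00014 in IL-2 and 0.00013 in IL-15; crossed sums differed by a median of 0.193 and 0.17). The same-numbered arrays are therefore pairs by construction of the deposited values.

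The platform gene table gave 1 symbol to 34958 probe sets, several to 932 and none to 9211, and 34754 identifiers matched RefSeq (GRCm38.p6), which changed 0 symbols and also gave gene order and promoter windows. A gene took its probe set of highest mean, and 9391 of 18194 genes, those at log2 5 or above on at least 2 arrays, were tested.

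All 10 arrays were fitted with limma 3.58.1 (lmFit, eBayes) in R 4.3.3. KO was compared with WT with the pair as a fixed block (3 residual degrees of freedom), and IL-15 with IL-2 on group means (6 residual degrees of freedom). The call rule was a p below 0.05 after Benjamini-Hochberg adjustment over all tested genes, with at least a 1.5-fold change. "Adjusted p over probe sets" comes from the same fit on every bright probe set with 1 symbol. A fold against a group with a mean under log2 5 is a lower limit, with the arrays of that group under log2 5 set to log2 5. A log2 difference printed for such a gene is that of the deposited values. The fits were tested on simulated data.

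Named genes are the 9 members with every probe set, up to 3 called genes per other list and comparison with the greatest change, the 3 genes nearest in pattern, Runx3, and sex-linked and marker genes as checks. The members and lists were chosen with earlier results of these data known. Genes named for being dim, Ccr9 and Ccr1l1 as neighbours, and single genes between the cytokines were chosen with their values seen. Alternatives were the fit without the block, centring and quantile normalization, other filters, limma trend, unadjusted p, other probe sets, the blocked variance, leaving out each array, and, added after the data were seen, crossed numbers in IL-15.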

Additional observations from a re-analysis of the deposited data

Results flagged for a closer look

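The KO effects of 2 members differed between IL-15 and IL-2 at an unadjusted p under 0.05 in the limma fit, and neither passed after adjustment over 9391 genes. For Ccr1 the effect in IL-15 minus that in IL-2 was 2.71 on the log2 scale (unadjusted p = 0.00379, adjusted p = 0.258), with Ccr1 lower in KO in 3 of 3 IL-2 pairs and dim on all IL-15 arrays. For Cxcr3 it was -2.43 (unadjusted p = 0.000754, adjusted p = 0.182), with Cxcr3 higher in KO in 3 of 3 IL-2 pairs and 2 of 2 IL-15 pairs. Ccr1 entered the test only through the WT arrays in IL-2, so its p-values are a description. Without the pair as a block both members passed. Groups of 2 or 3 arrays are too small to look for single arrays that stand apart.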

How the results depend on the processing

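The number of genes called for KO against WT in IL-2 (1851) was 3803 with no replicate block, 842 with no filter, 3391 at an unadjusted p under 0.05 with 1.5-fold, and 537 to 1525 when an array was left out, the lowest without pair 1 of IL-2 and 1026 without its pair 2. Of the 3 members called there, Cxcr3 passed in every fit. Ccr1 passed in every fit that tested it. Except with no filter, it entered those fits only through the WT arrays in IL-2, so its passing is a description. Cxcr4 did not pass after quantile normalization, with no filter, or with the numbers crossed in IL-15. It also did not pass when any single array other than those of pair 1 of IL-2 was left out. Cxcr6 passed as well, for 4 members, with no replicate block and at an unadjusted p under 0.05. In IL-15 (122 genes, 0 members) it was 1321 genes and 1 member (Cxcr3) with no replicate block, 0 genes with no filter, 1269 genes and 1 member at an unadjusted p under 0.05, and 0 to 95 genes when an array was left out (0 without pair 1 of IL-15, 11 without its pair 2 and 12 without pair 1 of IL-2). For the difference of the KO effects (0 genes, 0 members) it was 1157 genes and 2 members (Ccr1 and Cxcr3) with no replicate block, 4 genes with a filter at log2 6, 1106 genes and 2 members at an unadjusted p under 0.05, and 0 to 1 genes when an array was left out. Crossing the numbers in IL-15, an alternative added after the data were seen, gave 364 genes in IL-15 and 23 for the difference. With the residual variance of the blocked fit, 2433 genes were called between the cytokines in WT (4512 on group means) and 2191 in KO (4326), and the 2 members called in KO became 0. They were 1 with no filter and 0 to 2 when an array was left out. Ccr2 changed sign: in KO against WT in IL-2 (0.021) it was -0.054 after quantile normalization, -0.42 to 0.52 when an array was left out (-0.044 without pair 1, -0.42 without pair 3) and -0.34 by 1421188_at, in IL-15 (-1.05) it was 0.13 by 1460067_at, and between the cytokines it was -1.0 by 1460067_at in WT (0.51) and 0.38 by 1421188_at in KO (-0.56). No other member changed sign under the alternatives run, which left out probe sets too dim to test. The dim 1419610_at of Ccr1 had the other sign in KO against WT, at 0.094 in IL-2 (-2.91 by the main probe set) and 0.015 in IL-15 (-0.19). Between the cytokines in KO it gave -0.44 (0.30). The cause of these shifts was not tested, except that fits with fewer arrays have fewer degrees of freedom. Quantile normalization moved the median of all genes between the cytokines from 0.18 to -0.045 in WT and from -0.079 to -0.20 in KO. Levels under log2 5 (all of Ccr6, Ccr7 and Cxcr5, and Cx3cr1 on all but 1 array) carry no test, and 2 or 3 pairs per cytokine limit every comparison.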
